A study of Mus musculus with 17 samples.

Results

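The 10 genes described here belong to the circadian clock or are read out directly by it, and they were taken by symbol from the 56953 genes of a bulk RNA-seq count table of mouse prefrontal cortex. They are Per1, Per2, Per3, Cry1 and Clock of the core loop, Nr1d1 and Nr1d2 of the stabilising loop, and the output or modulator genes Dbp, Tef and Ciart. All 10 were present and all 10 passed the filter on low counts. Mice were 8 months old per the labels, with 9 months also given in the sources, and fell into 3 genotypes on a B6C3F1/J background: WT with 5 libraries, PS19 with 6 and CgA-KO/PS19 with 6. PS19, called hTau in the sample labels, carries a mutant human Tau transgene driven by Prnp regulatory sequence. CgA-KO/PS19, labelled CgA-KO/hTau, carries the same transgene on a whole-body, congenital knockout of Chga, the gene of chromogranin A. All mice were fed regular chow under a cycle of equal light and dark. A group with the knockout alone was not analysed here. The hour at which tissue was taken is not given in the sources used here, so time of day cannot be told apart from genotype. Each genotype was described as 3 males with 2 or 3 females, without a sex for each library.

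The mammalian clock is a feedback loop of transcription. CLOCK, or NPAS2 in its place, pairs with BMAL1 (the product of Arntl) and activates genes with E-box elements, among them the Per and Cry genes, Nr1d1, Nr1d2, Dbp, Tef and Ciart, and PER and CRY proteins repress that activity. The nuclear receptors NR1D1 and NR1D2 repress Arntl through RORE elements, which places Arntl transcripts in antiphase to those of Dbp and Nr1d1. DBP and TEF are PAR bZIP activators of D-box elements, and CIART is a repressor of the CLOCK complex. Per1 is also an acute response gene, induced through cAMP and calcium signals like the immediate early genes Fos and Egr1.

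Promoter sequence was examined for 9 of the 10 members, with 13 promoters in the RefSeq-based table of the mouse genome (GRCm38.p6; 250 bases before and 50 after each transcript start). An E-box, CACGTG, was found in 5 of these 13 promoters, belonging to Per1, Tef, Ciart and Cry1, against 7.15% of all 32851 promoters in the table. A D-box, TTATGTAA or TTACGTAA on either strand, was found in 1, that of Per3, against 1.06% of all promoters. The RORE core AGGTCA was in 3 (Per1, Nr1d2 and Clock) against 16.3%, and the cyclic AMP response element TGACGTCA was in none of the 13 against 1.79%. E-boxes read the same on both strands, and none of the 4 motifs overlapped another in the stretches shown. The upstream stretches of 4 genes are printed because the values of these genes carry the results that follow, with E-boxes or D-boxes in capitals and without bases that GENCODE M21 places in an exon.
Per1, chr11:69098699-69098947, plus strand: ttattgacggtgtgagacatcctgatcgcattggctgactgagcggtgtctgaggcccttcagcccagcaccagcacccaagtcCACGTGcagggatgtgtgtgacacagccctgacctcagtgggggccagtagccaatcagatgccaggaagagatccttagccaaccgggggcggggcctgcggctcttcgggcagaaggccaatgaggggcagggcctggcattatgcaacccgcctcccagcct
Ciart, chr3:95882252-95882478, minus strand: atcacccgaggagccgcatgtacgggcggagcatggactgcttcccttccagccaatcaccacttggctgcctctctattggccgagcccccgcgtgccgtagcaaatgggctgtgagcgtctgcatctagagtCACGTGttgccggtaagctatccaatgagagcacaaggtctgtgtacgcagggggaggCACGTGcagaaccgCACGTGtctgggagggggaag
Per3, chr4:151044666-151044915, minus strand: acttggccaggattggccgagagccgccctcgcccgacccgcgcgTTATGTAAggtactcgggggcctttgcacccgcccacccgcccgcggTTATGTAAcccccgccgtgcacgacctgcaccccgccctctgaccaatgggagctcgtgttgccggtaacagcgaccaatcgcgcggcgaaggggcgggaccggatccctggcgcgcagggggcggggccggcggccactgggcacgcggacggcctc
Dbp, chr7:45704997-45705087, plus strand: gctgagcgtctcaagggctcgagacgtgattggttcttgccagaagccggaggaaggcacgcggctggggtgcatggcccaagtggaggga
The Per1 stretch holds 1 E-box, that of Ciart 3 and that of Per3 2 D-boxes, whereas the 91 bases of Dbp hold neither motif. A match of letters is not a binding site, and its absence concerns this window only.

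Libraries held 8838334 to 227651681 counts (median 99510400 in WT replicate 5), and the shallowest was WT replicate 4. The members were well covered, from 86 counts for Ciart in WT replicate 4 to 70235 for Tef in PS19 replicate 6. The knocked-out gene Chga was at 0 counts throughout CgA-KO/PS19 and at 152 to 180 CPM in the others, where CPM are counts scaled to the library total after normalization by the trimmed mean of M values (TMM). Cortical glutamatergic markers such as Slc17a7 and Neurod6 were detected in every library. The summed level of 12 striatal markers, with Drd1, Drd2 and Adora2a, was 1108 to 3197 CPM in WT and 164 to 220 in PS19. In CgA-KO/PS19 it was 1773 and 1790 in replicates 1 and 3, 424 in replicate 2 and 198 to 225 in replicates 4 to 6. All 12 were higher in WT than in PS19 without overlap of the libraries. Ddx3y, a Y-chromosome gene, was at 49.8 to 76.8 CPM in replicates 1 to 3 of every genotype and at most 0.0582 in the others. Replicates 1 to 3 are therefore read as the males of each genotype and 4 to 6 as the females, although no label gives a sex. Within CgA-KO/PS19 the mitochondrial share of counts was 13.8% to 18.2% in replicates 1 to 3 and 3.84% to 10.9% in replicates 4 to 6. It was 3.53% to 7.94% in WT and 2.56% to 4.59% in PS19. Of the CgA-KO/PS19 libraries only replicate 4 lay within the PS19 range, and the part of this share in the genotype differences was not tested. PS19 replicates 4 to 6 resembled each other more closely than other libraries of 1 genotype did, as did CgA-KO/PS19 replicates 1 and 3. The robust SD of the log2 ratio over 3761 genes was 0.0523 to 0.0607 and 0.0980, and at least 0.146 in other pairs. Their variance was still 5.97 to 8.53 times the counting noise of the deposited counts at the median gene. A fragment worth more than 1 count would raise this multiple, so it cannot tell separate mice from repeats of 1 sample. These libraries were kept separate. Bulk tissue does not separate fewer cells of a type from less RNA per cell.

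Per length of annotated exons, Nr1d1 was the most abundant member and Per3 the least in each genotype. In PS19 the mean levels were 52.4 ± 2.18 CPM per kb for Nr1d1 (SD, n = 6), 41.7 ± 2.99 for Tef, 30.5 ± 1.04 for Nr1d2, 18.1 ± 1.61 for Dbp and 15.6 ± 2.42 for Per1. Clock followed at 8.47 ± 1.06 CPM per kb, then Per2 at 6.72 ± 1.01, Cry1 at 6.61 ± 0.610, Ciart at 5.49 ± 1.17 and Per3 at 3.90 ± 0.220. The ranges of the first 3 did not overlap each other, while those of Dbp and Per1 did, as did those of Clock and Per2, of Per2 and Cry1, and of Cry1 and Ciart. In CgA-KO/PS19 the place of Dbp in this order was below Clock, at a mean of 8.25 CPM per kb (4.44 to 12.6), with Clock at 9.84 (6.73 to 13.3) and ranges that overlapped.

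Dbp was the only member that passed the test in any comparison, and it was lower in CgA-KO/PS19. This D-box activator, a robustly cycling output of the clock, is encoded at chr7:45705088-45710203 (GRCm38, plus strand). There 737 bases overlap Sphk2 on the other strand, so some counts of Dbp may belong to Sphk2. In WT the libraries held 55.6, 37.2, 63.5, 39.7 and 37.0 CPM of Dbp. In PS19 they held 53.4, 60.8, 45.9, 55.5, 54.4 and 54.9 CPM. In CgA-KO/PS19 replicates 1 to 6 held 37.7, 19.4, 37.1, 19.9, 20.8 and 13.3 CPM. Every CgA-KO/PS19 library was thus below every PS19 library, and 4 of the 6 were below every WT library, while replicates 1 and 3 reached the low end of WT.

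Between CgA-KO/PS19 and PS19, Dbp was 2.19-fold lower, with a log2 fold change of -1.13 ± 0.22 (SE, adjusted p = 0.00656 over 23062 genes by the quasi-likelihood test of edgeR with Benjamini-Hochberg adjustment). It was 1 of 10 members called at an adjusted p under 0.05, where 9.72% of all genes were called. It was also the 1 member past the threshold in the study's methods, an absolute log2 fold change above 0.5 at p below 0.01 before adjustment, which 9.73% of all genes passed. Between CgA-KO/PS19 and WT, Dbp was 1.89-fold lower (log2 fold change -0.92 ± 0.23, adjusted p = 0.0234, edgeR), again 1 of 10 members by either rule, with 6.46% of all genes called and 7.75% past the study's threshold. The call against WT was lost without WT replicate 1 (adjusted p = 0.0533, edgeR), WT replicate 3 (0.0660) or CgA-KO/PS19 replicate 2 (0.0595). The call against PS19 held without any single library, at adjusted p-values of 0.00421 to 0.0191.

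Replicates 1 to 3 and 4 to 6, the 2 replicate sets, each gave a negative Dbp difference from PS19. Among replicates 1 to 3 alone the log2 fold change was -0.75 (adjusted p = 0.0613, edgeR), and among replicates 4 to 6 alone it was -1.63 (adjusted p = 0.00951). Estimated as an interaction in 1 fit of all libraries, the change between the sets was -0.84 ± 0.34 and did not pass (adjusted p = 0.126, edgeR). Like Dbp, summed GABAergic markers were lower in CgA-KO/PS19. They were at 631 to 1013 CPM in CgA-KO/PS19, against 1094 to 1471 in WT and 1127 to 1307 in PS19, with no CgA-KO/PS19 library inside either range and none of the 6 markers at 0. Within the knockout they were lowest in replicates 1 to 3, at 631 to 710 CPM, where Dbp was 37.7, 19.4 and 37.1. In replicates 4 to 6 they were at 980 to 1013 CPM, with Dbp below its level in replicates 1 and 3. The part of this marker list in the Dbp result was not tested. With the striatal marker level as a covariate the Dbp difference from PS19 was -1.62 on the log2 scale (adjusted p = 1.04e-04, edgeR), and that from WT was -0.47 (adjusted p = 0.0845). The difference between WT and PS19, whose striatal marker levels do not overlap, then became -1.15 (adjusted p = 0.00639, edgeR).

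**Figure D1:**
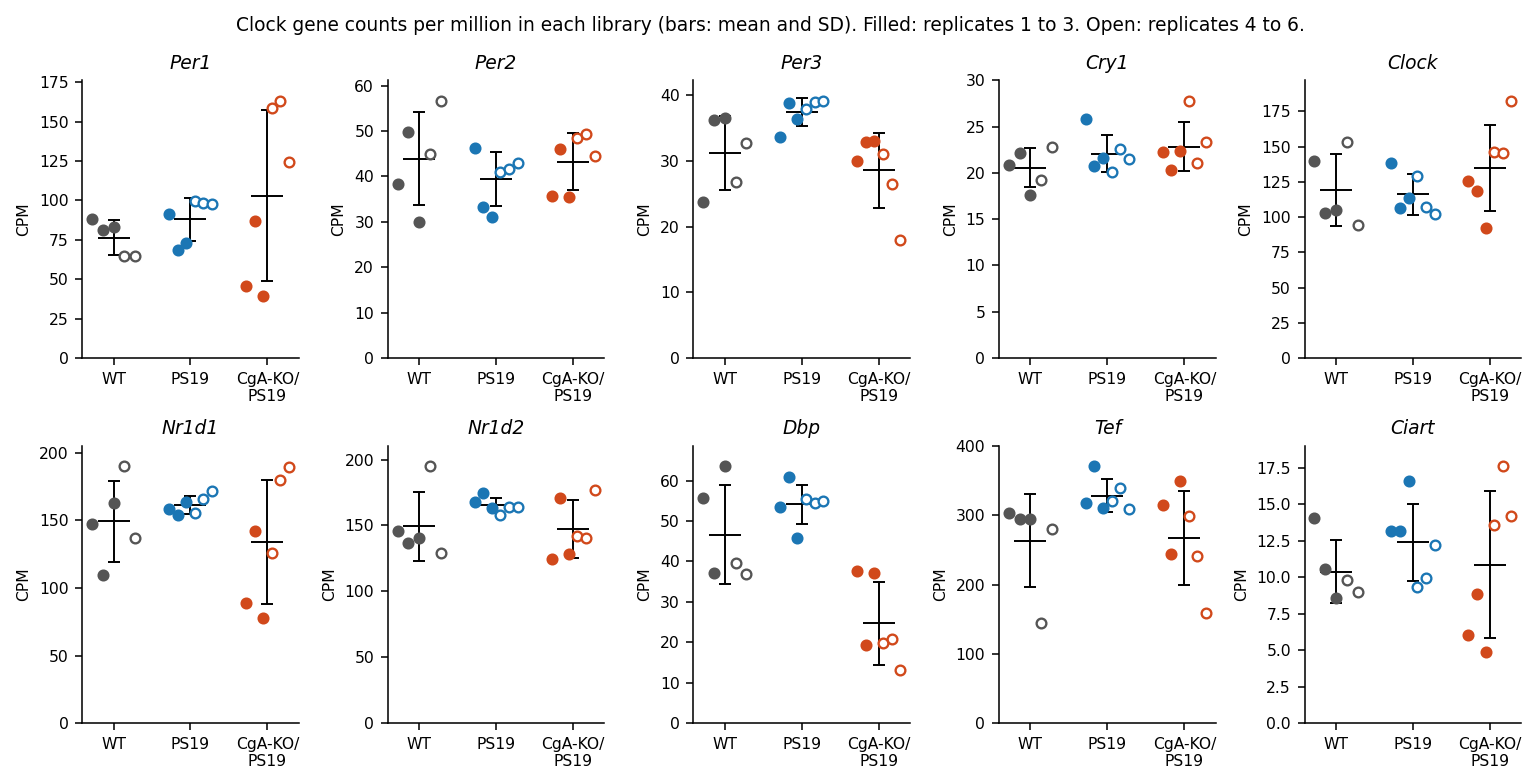
CPM (vertical axis, linear from 0) of the 10 clock genes in each library of WT, PS19 and CgA-KO/PS19, with filled points for replicates 1 to 3, open points for replicates 4 to 6 and bars for the mean and SD. The 6 CgA-KO/PS19 points of Dbp, 13.3 to 37.7 CPM, lie below the lowest PS19 point of 45.9, and those of Per1 spread from 39.2 to 163.

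Between WT and PS19 no member passed the test: 0 of 10 had an adjusted p under 0.05 (edgeR), where 5.90% of all genes were called. An unadjusted p under 0.05 was reached by 0 of the 10 and by 4825 of the 23062 genes tested. DESeq2 also called 0, and its share over all genes is not given here. None passed the study's threshold, which 7.39% of all genes did. The member differences, WT minus PS19, ran from -0.32 for Tef to 0.16 for Per2 on the log2 scale, and 8 of the 10 were below 0. Their median was -0.17 against -0.01 over all genes tested. Only Tef had WT and PS19 libraries that did not overlap, as did 9.52% of all genes. Its difference was -0.32 ± 0.19 (adjusted p = 0.359, edgeR). With the striatal marker level as a covariate 6 of the 10 were called, without a share of all genes for that fit to set beside it.

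The 9 members other than Dbp also did not pass in the comparisons with CgA-KO/PS19. Their differences from PS19 ran from -0.39 for Per3 to 0.23 for Per1, with 4 above and 5 below 0, and their median was -0.17 where that of all genes was 0.03. Against WT they ran from -0.15 for Nr1d1 to 0.43 for Per1, with 5 above and 4 below 0 and a median of 0.02. For 2 members, Dbp and Per3, the CgA-KO/PS19 and PS19 libraries did not overlap, as for 6.63% of all genes. Against WT no member was free of overlap, where 3.60% of all genes were.

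**Figure D2:**
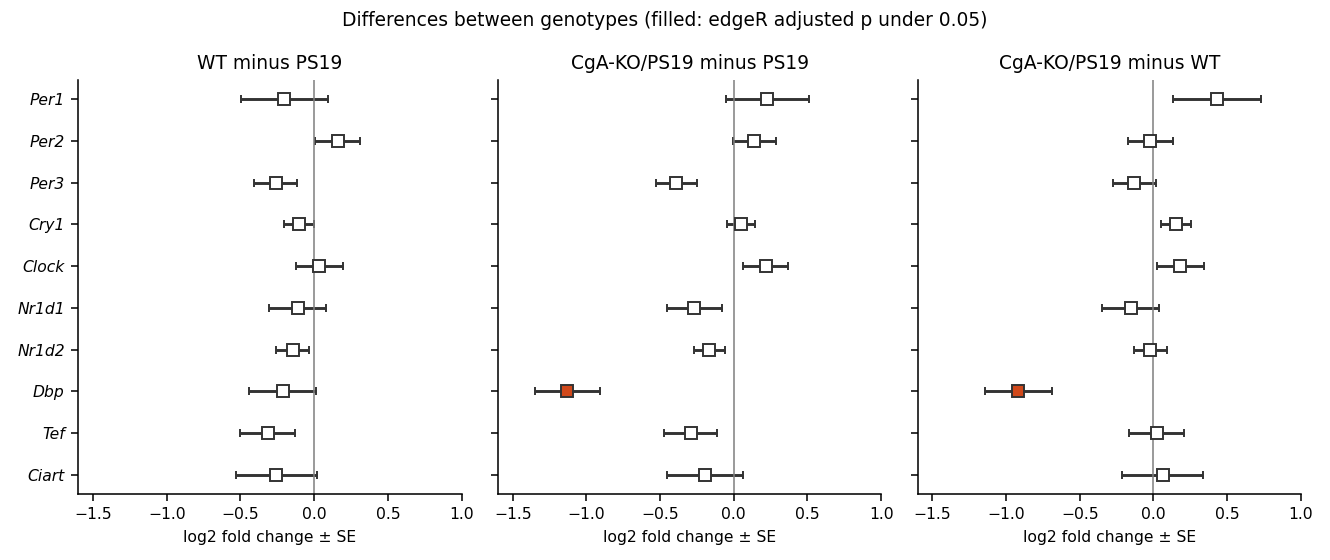
Log2 fold change (horizontal axis) with its standard error for each of the 10 clock genes in the 3 genotype comparisons, with filled squares for an edgeR adjusted p under 0.05. Dbp is filled at -1.13 against PS19 and -0.92 against WT, and every other square is open and within 0.43 of 0.

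Per3, the third Period gene and a D-box target, lies within the annotated span of Camta1 on the same strand of chromosome 4, so its counts may hold reads of that gene. In WT it stood at 23.8, 36.2, 36.5, 26.8 and 32.8 CPM. The 6 PS19 libraries had a lowest value of 33.7, a median of 38.4 and a highest of 39.1 CPM. In CgA-KO/PS19 the values were 30.0, 32.9, 33.0, 31.1, 26.5 and 17.9 CPM, each below the lowest of PS19, while WT overlapped both groups. The difference from PS19 was -0.39 ± 0.14 on the log2 scale and missed the threshold (adjusted p = 0.0768, edgeR). It was -0.17 among replicates 1 to 3 and -0.63 among replicates 4 to 6, and 1 library, CgA-KO/PS19 replicate 6, was the lowest for Per3 as it was for Dbp.

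Per1, a light- and activity-inducible repressor of the loop (chr11:69095217-69109960, plus strand), varied more among CgA-KO/PS19 libraries than any other member. WT held 88.3, 81.4, 83.0, 64.6 and 65.0 CPM. PS19 held 91.5, 68.7, 73.3, 99.4, 98.1 and 97.6 CPM. CgA-KO/PS19 held 45.7, 87.3, 39.2, 159, 163 and 124 CPM, so that 2 of its libraries were below and 3 above every library of the other genotypes. Their mean was 103 ± 54.4 CPM (SD, n = 6). The log2 SD of Per1 within CgA-KO/PS19 was 0.90, at percentile 95.5 of 15474 genes, compared with 0.24 within PS19.

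Ciart, which lies wholly within the antisense gene C920021L13Rik, followed Per1 among the CgA-KO/PS19 libraries but not among those of PS19. Because the counting is not stated to use strand, reads of the pair cannot be told apart. WT held 14.0, 10.6, 8.58, 9.81 and 8.97 CPM. Replicate 1 was the highest WT library in both Ciart and Per1, while replicate 3 was the lowest in Ciart but not in Per1. PS19 held 13.2, 13.2, 16.6, 9.33, 9.92 and 12.2. CgA-KO/PS19 held 6.08, 8.85, 4.89, 13.6, 17.6 and 14.2 CPM, low in replicates 1 to 3 and within or just above the PS19 range in replicates 4 to 6.

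The CgA-KO/PS19 difference from PS19 depended on the replicate set for both genes. Among replicates 1 to 3 the Per1 difference was -0.42 on the log2 scale, and among replicates 4 to 6 it was 0.58. Tested as an interaction in 1 fit, the change between the sets was 1.04 ± 0.31 (adjusted p = 0.0462, edgeR). For Ciart the differences were -1.11 and 0.51, and the change was 1.65 ± 0.31 (adjusted p = 0.00447, edgeR). These were the 2 of 10 members called for this change, where 11.7% of all genes were called. Over all libraries the 2 directions left differences of 0.23 ± 0.28 for Per1 and -0.19 ± 0.26 for Ciart, neither past the threshold (adjusted p = 0.636 and 0.663, edgeR). The interaction was added after the libraries had been seen to differ. The sets also differ in the sex read from Ddx3y, in mitochondrial share and in striatal markers.

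Immediate early genes moved with Per1 among the CgA-KO/PS19 libraries and, in a narrower range, among those of PS19. The summed level of 13 such genes was 423 and 402 CPM in CgA-KO/PS19 replicates 1 and 3, 1076 in replicate 2, and 2713 to 3189 in replicates 4 to 6. It was 641 to 1057 in WT and 512 to 1344 in PS19. Fos held 7.69, 27.0, 7.45, 139, 123 and 102 CPM across CgA-KO/PS19 replicates 1 to 6. Of all 17 libraries, replicates 1 and 3 had the least of both Fos and Per1, and replicates 4 to 6 the most of both. In PS19, too, replicates 2 and 3 had the least Fos (12.3 and 14.2 CPM) and the least Per1 (68.7 and 73.3). Between CgA-KO/PS19 and PS19 all 13 differences were above 0, as were those of 12155 of the 23062 genes tested. Of the 13, edgeR called 0, where it called 9.72% of all genes. DESeq2 called 1, and its share over all genes is not given here. An unadjusted p under 0.05 (edgeR) was reached by 3 of the 13 and by 6420 of the 23062. In WT the orders differed: replicate 1, with the most Per1 (88.3 CPM), had a summed level of 783 CPM, below the 1057 of replicate 2 and the 790 of replicate 5, where Per1 was 65.0. The part of this response in the Per1 and Ciart values was not tested.

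**Figure D3:**
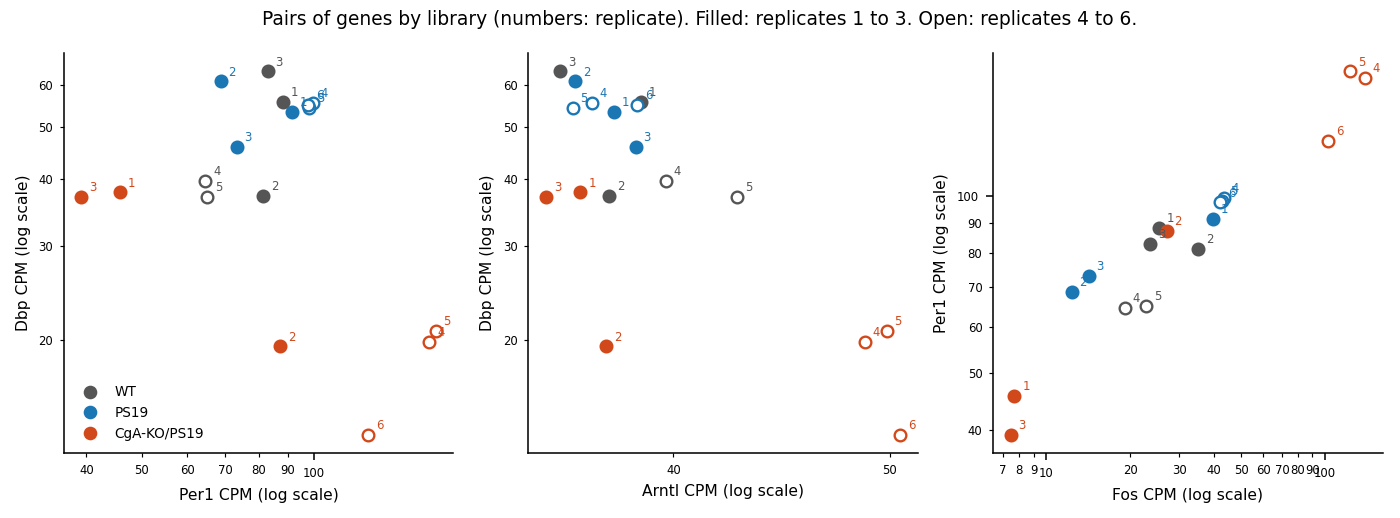
Pairs of genes in CPM on logarithmic axes, 1 point for each of the 17 libraries with its replicate number, filled for replicates 1 to 3 and open for 4 to 6: Dbp against Per1, Dbp against Arntl, and Per1 against Fos. CgA-KO/PS19 replicates 1 and 3 lie at the low end of both Fos and Per1, and replicates 4 to 6 combine the highest Per1 with Dbp of 13.3 to 20.8 CPM.

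Per2, the second acute and rhythmic Period gene, and Cry1, its cryptochrome partner, were level across genotypes. Per2 had 38.4, 49.7, 29.9, 45.1 and 56.7 CPM in WT. In PS19 its lowest, median and highest values were 31.0, 41.3 and 46.3 CPM, and in CgA-KO/PS19 they were 35.4, 45.3 and 49.3, so that all 3 groups overlapped. The difference of CgA-KO/PS19 from PS19 was 0.14 ± 0.15 on the log2 scale. Cry1 stayed between 17.6 and 27.8 CPM in all 17 libraries. Its within-genotype SD of 0.15 on the log2 scale was at percentile 10.1 of 15474 genes.

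Clock, the DNA-binding activator of the loop, ranged from 92.4 to 183 CPM in CgA-KO/PS19, from 102 to 139 in PS19 and from 94.6 to 154 in WT. Its difference between CgA-KO/PS19 and PS19 was 0.22 ± 0.15 on the log2 scale (adjusted p = 0.370, edgeR). A pseudogene and an unconfirmed transcript lie within its span on the same strand.

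Nr1d1 and Nr1d2, the heme-binding repressors of Arntl, were the steadiest members in PS19. Nr1d1 was 154 to 172 CPM and Nr1d2 158 to 174 CPM in the 6 PS19 libraries. In WT, Nr1d1 was 147, 110, 163, 190 and 137 CPM and Nr1d2 was 146, 137, 141, 195 and 129. In CgA-KO/PS19, Nr1d1 was 89.0, 142, 78.2, 126, 180 and 189 CPM and Nr1d2 was 125, 171, 129, 142, 141 and 177. Replicates 1 and 3, lowest in Per1 and Ciart, were also lowest in both receptors. Neither receptor passed the test against PS19, at -0.27 ± 0.19 for Nr1d1 and -0.17 ± 0.11 for Nr1d2 on the log2 scale. Nr1d1 shares 1075 bases with Thra on the opposite strand, so some of its counts may belong to Thra.

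Tef, the PAR bZIP relative of Dbp, overlaps the antisense gene Gm17597 by 193 bases, and it did not pass the test. In WT its libraries held 304, 294, 294, 145 and 280 CPM, of which replicate 4, the shallowest, stood apart. PS19 ran from 309 to 371 CPM with a median of 320. CgA-KO/PS19 held 315, 244, 349, 299, 241 and 159 CPM. The difference of CgA-KO/PS19 from PS19 was -0.29 ± 0.18 on the log2 scale (adjusted p = 0.297, edgeR). Hlf, the remaining PAR bZIP gene, was -0.37 ± 0.24 in the same comparison (adjusted p = 0.319).

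Ratios of counts between 2 genes of the same library do not depend on its depth or scaling, and they show how the members stood to each other in each cortex. They are not corrected for gene length and are compared only between libraries. Dbp per Per1 was 0.46 to 0.77 in WT and 0.55 to 0.89 in PS19. In CgA-KO/PS19 it was 0.83, 0.22, 0.95, 0.12, 0.13 and 0.11, a span of 8.84-fold within 1 genotype. Replicate 3 was above every library of the other genotypes, replicate 1 was above WT and within the range of PS19, and the other 4 were below all of them.

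Dbp against its antiphase partner Arntl gave a more even picture. The ratio was 0.87 to 1.79 in WT and 1.19 to 1.68 in PS19, with a median of 1.47. It was 1.04, 0.52, 1.06, 0.41, 0.42 and 0.26 in CgA-KO/PS19, so that every library was below the whole of PS19. Replicates 1 and 3 lay inside the WT range. Dbp per Per3, a ratio of 2 genes that both had low values in the knockout, was 0.59 to 1.26 in CgA-KO/PS19, compared with 1.26 to 1.59 in PS19 and 1.03 to 2.34 in WT.

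Ciart per Dbp was 0.14 to 0.28 in WT and 0.17 to 0.36 in PS19, and reached 0.45, 0.68, 0.85 and 1.07 in CgA-KO/PS19 replicates 2, 4, 5 and 6, against 0.16 and 0.13 in replicates 1 and 3. Per1 per Per3 was 1.98 to 3.72 in WT and 1.77 to 2.72 in PS19. In the knockout it was 1.52, 2.65, 1.19, 5.11, 6.17 and 6.93. The span of these 5 ratios within a genotype was at most 2.27-fold in WT and PS19. Within CgA-KO/PS19 it was 2.13-fold for Dbp per Per3 and 4.02- to 8.84-fold for the other 4. Further ratios were computed. Dbp per Nr1d1 spanned 1.87-fold in WT, 1.40-fold in PS19 and 6.8-fold in CgA-KO/PS19. In the same order Per1 per Per2 spanned 2.42-, 1.23- and 2.99-fold, and Nr1d1 per Nr1d2 1.44-, 1.19- and 2.11-fold.

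**Figure D4:**
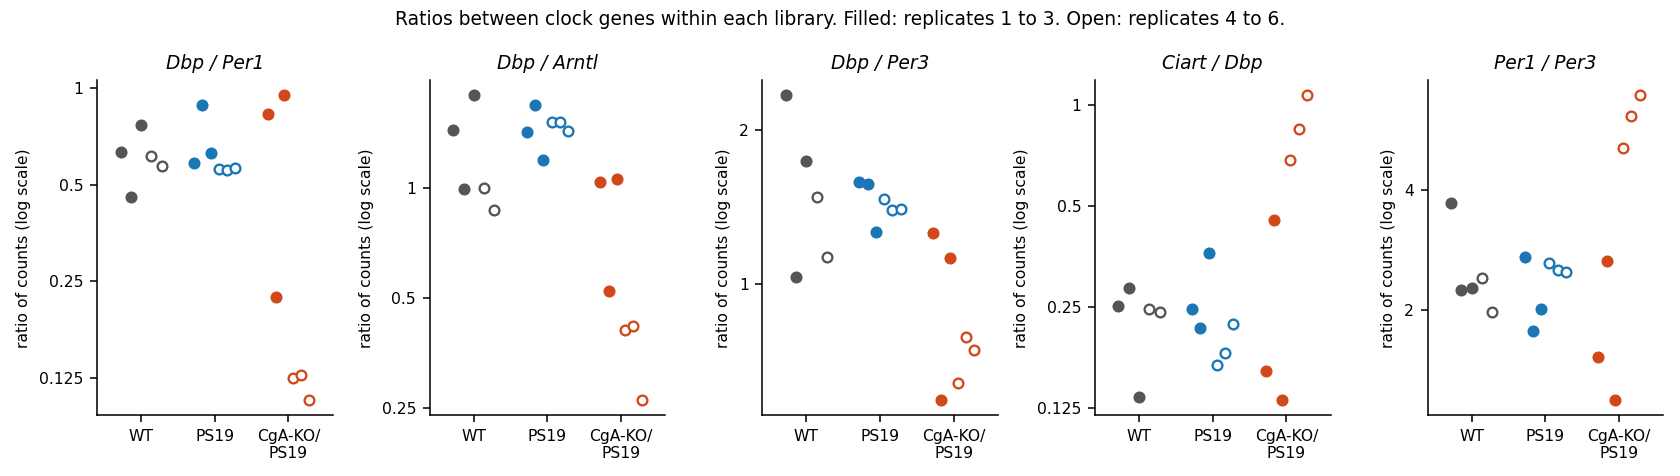
Ratio of the counts of 2 clock genes within each library (logarithmic axes), for 5 pairs, by genotype, with filled points for replicates 1 to 3 and open points for replicates 4 to 6. In CgA-KO/PS19, Dbp per Per1 runs from 0.11 to 0.95 and Ciart per Dbp from 0.13 to 1.07, with replicates 1 and 3 at one end and replicates 4 to 6 at the other.

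Across the 17 libraries, with each gene centred on its genotype mean, 12 relations of Dbp with other clock genes were computed, and 0 had an adjusted p under 0.05 while 3 had an unadjusted p under 0.05 (two-sided permutation test, 100000 resamples within genotype). Dbp ran against Arntl (Pearson r = -0.75, adjusted p = 0.0563 by permutation, Spearman rho = -0.57, adjusted p = 0.248). It ran against Per2 in the same way (r = -0.63, adjusted p = 0.0563 by permutation, rho = -0.56, adjusted p = 0.248) and with Tef (r = 0.66, adjusted p = 0.0942 by permutation, rho = 0.60, adjusted p = 0.248). Without CgA-KO/PS19 replicates 2 and 6, the libraries farthest from the median of Dbp, r was -0.86 with Arntl, -0.73 with Per2 and 0.45 with Tef. None of these passed over the 15 libraries left (adjusted p = 0.129, 0.129 and 0.386 by permutation).

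With Per1 the pooled r was -0.60 (adjusted p = 0.178 by permutation, rho = -0.25, adjusted p = 0.522), but within replicates 1 to 3 it was -0.70 (9 libraries) and within replicates 4 to 6 it was 0.99 (8 libraries). Neither value passed the permutation test (adjusted p = 0.522 and 0.759), and the pooled relation did not hold in both sets. With Arntl, r was -0.60 and -0.34 in the 2 sets, and with Tef 0.78 and 0.52. With Per2 it was -0.66 and 0.29. These values of Arntl, Tef and Per2 did not pass either (adjusted p = 0.5 to 0.759 by permutation).

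Of the 24 other clock genes examined, from activators to kinases, 2 passed in WT against PS19, 2 in CgA-KO/PS19 against PS19 and 0 in CgA-KO/PS19 against WT, where 5.90%, 9.72% and 6.46% of all genes were called. Against PS19, WT had 2 lower, the receptor gene Rora (-0.53 ± 0.13, adjusted p = 0.0241, edgeR) and the cell-cycle kinase gene Wee1 (-0.53 ± 0.13, adjusted p = 0.0206). CgA-KO/PS19 also had 2 lower, Wee1 (-0.50 ± 0.12, adjusted p = 0.0180) and Timeless (-0.77 ± 0.20, adjusted p = 0.0248, edgeR). Against WT, where edgeR called 0, 4 had an unadjusted p under 0.05, as did 5006 of the 23062 genes tested. DESeq2 called 5 in WT against PS19, 2 in CgA-KO/PS19 against PS19 and 0 in CgA-KO/PS19 against WT. Its share over all genes is not given here. The median difference of the 24 genes was -0.21 for WT against PS19, -0.08 for CgA-KO/PS19 against PS19 and 0.08 for CgA-KO/PS19 against WT on the log2 scale, against -0.01, 0.03 and 0.01 over all genes.

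Wee1, a clock-controlled gene, had 37.3, 34.8, 27.8, 34.4 and 25.4 CPM in WT. In PS19 it had a lowest value of 44.1 and a highest of 49.5. In CgA-KO/PS19 it had 24.9, 29.1, 27.7, 40.8, 35.2 and 36.8 CPM, so that both other genotypes were below PS19 without overlap, against the same PS19 libraries. Without some single libraries these counts of other clock genes changed: between 0 and 4 were called in WT against PS19, and between 1 and 3 in CgA-KO/PS19 against PS19. With near-identical libraries averaged, or with a replicate block, 0 were called in both, so that the calls of Rora, Wee1 and Timeless were lost.

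Arntl, the partner of Clock, shared the split of the CgA-KO/PS19 libraries. It was 35.6 to 42.7 CPM in WT and 36.1 to 38.5 in PS19. In CgA-KO/PS19 it was 36.3, 37.3 and 35.1 CPM in replicates 1 to 3 and 48.7, 49.9 and 50.6 in replicates 4 to 6. The difference from PS19 over all libraries was 0.21 ± 0.10 on the log2 scale (adjusted p = 0.190, edgeR), and its change between the replicate sets was 0.47 ± 0.11 (adjusted p = 0.0146, edgeR).

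Nfil3, the bZIP repressor of D-box elements, changed likewise, with 6.52 to 8.55 CPM in CgA-KO/PS19 replicates 1 to 3, 16.1 to 20.4 in replicates 4 to 6 and 7.34 to 12.1 in PS19. Its change between the replicate sets was 1.10 ± 0.28 (adjusted p = 0.0220, edgeR). Npas2, which can replace Clock, differed from PS19 by 0.03 ± 0.11 in CgA-KO/PS19 and -0.10 ± 0.12 in WT. Cry2 differed by -0.25 ± 0.12 and -0.33 ± 0.13 (adjusted p = 0.185 and 0.132, edgeR), and its WT and PS19 libraries did not overlap. The bHLH repressor gene Bhlhe40, an activity-responsive antagonist of CLOCK at E-boxes, followed Per1: 76.1, 154, 80.2, 282, 290 and 262 CPM in CgA-KO/PS19 replicates 1 to 6, with a change between the replicate sets of 0.998 ± 0.27 (adjusted p = 0.0302, edgeR).

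**Figure D5:**
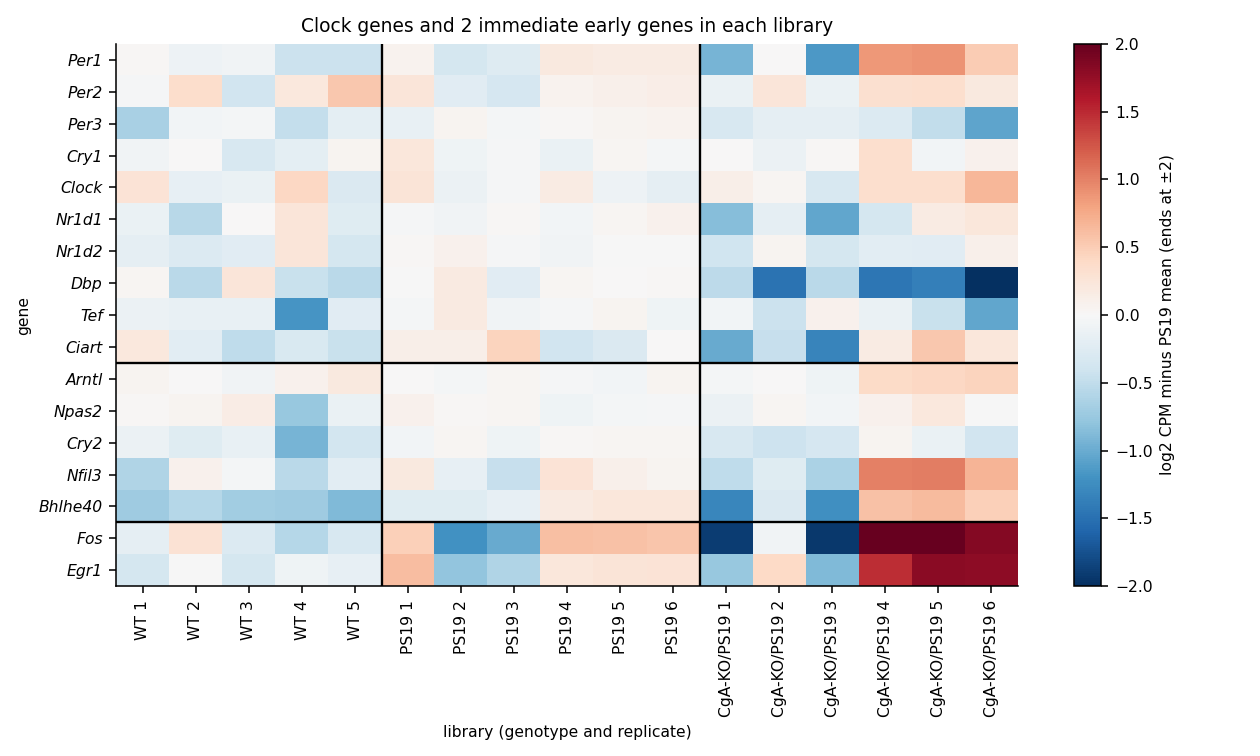
Log2 CPM of the 10 members (top), 5 other clock genes (middle) and Fos and Egr1 (bottom) in each library, minus the mean of the 6 PS19 libraries, with blue for lower and red for higher values and colours ending at 2. The Dbp row is blue throughout CgA-KO/PS19, whereas Per1, Ciart, Nfil3 and Bhlhe40 turn from blue in replicates 1 and 3 to red in replicates 4 to 6.

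Genes most like the members were sought by the correlation of each gene with the mean profile of the 8 members other than Cry1 and Clock, centred on genotype, over 17 libraries and 15464 genes with a mean of at least 1 CPM. This profile mainly followed Per1 (r = 0.92), Ciart (0.77) and Nr1d1 (0.59), and Dbp ran against it (-0.38). The nearest genes were Mnt (r = 0.94), a bHLH repressor of the MYC network, and Plk3 (0.93), a stress-responsive kinase, and the immediate early gene Ier2 was among the nearest 10 (0.90). The other 7 of those 10, 2900026A02Rik, Lingo1, Osbp2, Ccdc184, Rsad1, Kcnj9 and Tmem145, had r of 0.89 to 0.91. The 10 that ran most against it had r of -0.91 to -0.86, with Dhx40, Sh3bgrl and Fbxl16 the lowest, followed by Gas2l3, Gmfb, AU023762, Nexn, Six3os1, Gm51425 and Dsel. These values describe the libraries, which share their depth and tissue content, and carry no test.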

How the data were processed

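Prefrontal cortex RNA of 17 mice was sequenced as poly(A) libraries, paired-end. The authors deposited whole-number counts per gene, not normalized, which per the study's methods and the submitters' processing notes came from FastQC, Trimmomatic 0.39, STAR 2.7.10b against mm10 and StringTie 1.3.6. The annotation release and the strand setting are not given in the sources used here. StringTie derives counts from coverage, and whole values of 3 and 6 are commoner than their neighbours, so a fragment may be worth more than 1 count and precision is lower than the counts alone imply.

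Genotypes and replicate numbers came from the sample titles. Genes were tested in edgeR 4.0.16 (R 4.3.3) by the quasi-likelihood test with TMM scaling, the filterByExpr filter by genotype and no covariate, in 1 fit of 17 libraries, with Benjamini-Hochberg adjustment over the 23062 genes kept. The common biological coefficient of variation was 0.316. A call is an adjusted p under 0.05. The study describes replicates as biological, so each library was taken as a separate mouse, although the labels give no animal for a library. Checked on simulated counts for CgA-KO/PS19 against PS19, 198 of 200 genes changed by 1.5 on the log2 scale were recovered, with 7 false calls among 22594 genes. The simulated libraries had no replicate sets and no near-identical members, and the planted change was larger than that of Dbp. These rates therefore need not hold for the real libraries. Correlations used Python 3.11.15 with numpy 2.4.6, on log2 CPM with a prior count of 2. Positions and exon lengths came from GENCODE M21 (GRCm38), where all 10 members matched by identifier, and promoters from a RefSeq-based table (GRCm38.p6) with no entry for Per2.

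The members, the lists of other clock, immediate early and marker genes and the tests were chosen with earlier results of these data known. Named genes were the 10 members, Arntl, Npas2, Nfil3 and Cry2 in all cases, listed genes where called or moving with a member, and the 10 most and 10 least like the members. Glucocorticoid-induced, glial, endothelial and choroid plexus lists were also measured. A gene of the other clock genes is not reported here and was left out of their counts and medians.

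Same-numbered libraries of different genotypes were checked for pairing: 4 of 16 such pairs had correlated deviations above 0.1 (-0.16 to 0.42), so the numbers do not pair the samples. Alternatives were DESeq2 1.42.0, its size factors, other filters, 2 genotypes at a time, a replicate block, replicates 1 to 3 against 4 to 6 as a term, each of these sets alone, averaging of near-identical libraries, a striatal covariate and leaving out each library. Leaving out CgA-KO/PS19 replicates 1 to 3 or 4 to 6 and the interaction of genotype with the replicate set were added after seeing the data.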

Additional observations from a re-analysis of the deposited data

Results flagged for a closer look

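Of 42 sets of libraries examined (14 clock genes in 3 genotypes), 2 held a library far from the others, where chance gives about 1 in 20. Both were in WT replicate 4, the shallowest library. Tef was at 145 CPM there against 280 to 304 in the other 4 WT libraries, and Nr1d2 was at 195 CPM against 129 to 146.

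The difference between CgA-KO/PS19 and PS19 depended on the replicate set for 7 of 17 genes examined, where 11.7% of all genes were called, as the difference in replicates 4 to 6 minus that in replicates 1 to 3 on the log2 scale. It was 1.04 for Per1, 1.65 for Ciart, 0.47 for Arntl, 1.10 for Nfil3, 0.998 for Bhlhe40, 2.15 for Fos and 1.62 for Egr1. Adjusted p-values were 0.00447 to 0.0483 (edgeR interaction term). Bhlhe40, Fos and Egr1 were examined because they moved with Per1. The sets also differ in the sex read from Ddx3y, and within CgA-KO/PS19 in striatal, astrocyte, oligodendrocyte and GABAergic markers and in mitochondrial counts. Their part in these differences was not tested.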

How the results depend on the processing

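The difference of Dbp between CgA-KO/PS19 and PS19 was below 0 under all alternatives and missed the threshold only among replicates 1 to 3 (-0.75, adjusted p = 0.0613, edgeR). Against WT it also missed among replicates 1 to 3 (-0.72), with 2 genotypes alone (-0.90), with the striatal covariate (-0.47) and without CgA-KO/PS19 replicates 4 to 6 (-0.58). Members called in WT against PS19 became 1 among replicates 4 to 6 (Per1) and 6 with the striatal covariate, whose level separates those genotypes without overlap. In CgA-KO/PS19 against PS19 they became 3 with that covariate, 2 without CgA-KO/PS19 replicates 1 to 3 and 4 without its replicates 4 to 6. In CgA-KO/PS19 against WT they became 0 among replicates 1 to 3, 2 among replicates 4 to 6, 0 with 2 genotypes alone, 3 with the covariate and 2 without CgA-KO/PS19 replicates 1 to 3. Leaving out 1 library gave 0, 1 and 0 to 1 members in the 3 comparisons. The share of all genes called under each alternative is not given here, so these counts cannot be set against it.

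Other clock genes called in WT against PS19 became 5 by DESeq2, 5 with 2 genotypes alone, 5 with the covariate, 0 among replicates 1 to 3, 0 with near-identical libraries averaged, 4 and 6 without CgA-KO/PS19 replicates 1 to 3 and 4 to 6, and 0 to 4 without 1 library. In CgA-KO/PS19 against PS19 they became 9 among replicates 1 to 3, 0 among replicates 4 to 6, 0 with libraries averaged, 4 with the covariate, 9 without CgA-KO/PS19 replicates 4 to 6, and 1 to 3 without 1 library. Against WT they became 5, 2, 4, 3 and 2 among replicates 1 to 3, among 4 to 6, with the covariate and without CgA-KO/PS19 replicates 1 to 3 or 4 to 6, and 0 to 1 without 1 library. These counts, too, stand without the share of all genes called under the same setting. A replicate block, for numbers that do not pair the samples, gave 0 other clock genes in both comparisons with PS19 and changed no call of a member (Dbp -1.24 and -0.88). Relations of Dbp with an adjusted p under 0.05 became 2 with DESeq2 size factors, 2 without centring and 0 to 2 without 1 library.

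Directions turned for differences that were not called in the fit reported above. Of the turned values, 4 passed the test (edgeR): with the covariate, WT minus PS19 of Per1 (adjusted p = 0.00437), Ciart (0.0106) and Nr1d1 (0.0427), and, without CgA-KO/PS19 replicates 4 to 6, CgA-KO/PS19 minus PS19 of Per1 (0.0444). Among replicates 1 to 3, WT minus PS19 became 0.12 for Per1, -0.041 for Clock, -0.0048 for Arntl and 0.026 for Npas2, and CgA-KO/PS19 minus PS19 became -0.42 for Per1, -0.058 for Cry1, -0.079 for Clock, -0.031 for Arntl, -0.077 for Npas2 and -0.31 for Nfil3. Among replicates 4 to 6, Ciart became 0.51. With the covariate, WT minus PS19 became 1.33 for Per1, 0.70 for Nr1d1, 0.16 for Nr1d2, 1.06 for Ciart, 0.0026 for Cry1 and 0.98 for Nfil3, and CgA-KO/PS19 minus PS19 became 0.030 for Nr1d1 and 0.25 for Ciart. Without CgA-KO/PS19 replicates 1 to 3 the latter became 0.023 for Nr1d1 and 0.28 for Ciart. Without its replicates 4 to 6 it became -0.63 for Per1, -0.021 for Per2, -0.041 for Cry1, -0.064 for Clock, -0.051 for Arntl, -0.053 for Npas2 and -0.48 for Nfil3. With no filter it became -0.0014 for Cry1 and -0.023 for Npas2. Leaving out 1 library gave -0.072 to 0.11 for Clock and -0.17 to 0.022 for Npas2 in WT minus PS19, and -0.0062 to 0.10 for Cry1 and -0.0086 to 0.057 for Npas2 in CgA-KO/PS19 minus PS19. The r of Dbp became 0.99 with Per1 and 0.29 with Per2 among replicates 4 to 6, and -0.19 with Per3 among replicates 1 to 3. The cause of these changes was not tested. Depth limits Ciart most, with 86 counts in WT replicate 4.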

Other observations

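Glial markers also differed among the CgA-KO/PS19 libraries. The summed level of 6 astrocyte markers was 1830 to 2102 CPM in replicates 1 to 3 and 1010 to 1201 in replicates 4 to 6, against 1074 to 1373 in PS19 and 930 to 1164 in WT. The summed level of 6 oligodendrocyte markers was 1847 to 2186 and 1247 to 1389 CPM, against 1056 to 1518 in PS19 and 964 to 1585 in WT. Endothelial markers were 177 to 201 and 146 to 154 CPM, and microglial markers 189 to 197 and 125 to 160.

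Glucocorticoid-induced genes, several of which follow the daily corticosterone rhythm, gave 1 call of 7 in each comparison, where 5.90% of all genes were called in WT against PS19, 9.72% in CgA-KO/PS19 against PS19 and 6.46% in CgA-KO/PS19 against WT. Zbtb16, a transcription factor, was lower than in PS19 both in WT (-0.83 ± 0.23, adjusted p = 0.0398) and in CgA-KO/PS19 (-0.72 ± 0.21, adjusted p = 0.0417, both edgeR), against the same PS19 libraries. Fkbp5, a co-chaperone of the glucocorticoid receptor, was lower in CgA-KO/PS19 than in WT (-0.68 ± 0.16, adjusted p = 0.0201, edgeR), with 15.5 to 32.7 CPM against 32.8 to 47.5. The choroid plexus list, led by Ttr, was 1092 CPM in WT replicate 5 and at most 18.9 CPM in the other 16 libraries.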
